A study of Mus musculus with 4 samples.

Results

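The mitotic kinases described here are 10 genes, Cdk1, Plk1, Aurka, Aurkb, Bub1, Bub1b, Ttk, Melk, Pbk and Nek2, among 45616 genes represented on a mouse expression array. They were chosen by name, and 13 probes belonged to them by the transcript accession given for each probe. Islet RNA was measured on 4 single-colour Agilent arrays, each labelled as coming from a different mouse. The control group held 2 mice of genotype Pdx1-Cre, called wild type in the labels, and the Rb-deficient group held 2 mice of genotype Pdx1-Cre:Rbf/f. All 4 mice carried the Cre transgene, which the Pdx1 promoter drives in the pancreatic lineage, so exocrine and duct cells as well as islet cells can lose Rb. The labels used here give no age or sex for the mice. The comparison asks how RNA of the kinases differed between islets of the 2 genotypes. The Rb gene encodes the retinoblastoma protein, a repressor of E2F-driven cell cycle genes, and the arrays do not measure that protein.

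Mitotic kinases are enzymes that drive cells through division by phosphorylating proteins of the spindle, the centrosomes and the chromosomes. CDK1 with its cyclins starts mitosis, PLK1 and the Aurora kinases build the spindle and separate the chromosomes, and BUB1, BUBR1 (from Bub1b) and TTK form the checkpoint that holds cells until the chromosomes are attached. Their transcripts peak in G2 and mitosis and are low in resting cells, and adult beta cells seldom divide. In bulk islets, more dividing cells and more RNA per cell cannot be told apart.

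All values below are levels on a log2 scale, the background-subtracted signal of a probe minus the 75th percentile of its array, unless a fold is named. That percentile was a signal of 361 to 488 units. A level of 0 therefore equals the 75th percentile, and levels of different probes are not comparable. A probe was called well above background where the scanner software set that flag. The dimmest probes with the flag stood at -5.21 to -5.46, so values under about that range carry little information on the RNA. The share of probes with the flag was 76.5% on control array 1 and 59.0% to 59.9% on the other 3 arrays. Control 1 also stood apart in its sex-linked genes: 4 of 4 Y-linked genes were well above background there and on no other array, and Xist was well above background on the other 3 arrays and not on control 1. Differences of the kinases without control 1 are therefore given beside the others, and those of the gene lists once, after the lists. All 10 beta cell markers were well above background on all 4 arrays. The brightest Rb1 probe, the check of the deletion, stood at 0.28 and 0.86 in controls and at -0.48 and -0.90 in Rb-deficient islets, 2.40-fold lower, and its second probe differed by -1.56 (log2). The groups did not overlap on either probe. The positions of these probes relative to the floxed exon were not tested.

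The mean of every one of the 10 kinases was higher in Rb-deficient islets, from 0.70 (log2) for Bub1b to 3.14 for Melk. The median difference was 1.21, beside -0.24 over all 45616 genes and -0.07 over the 26380 genes past a filter on dim probes, which required the background flag on the 2 arrays of 1 group or the other. The brightest probe of a gene stood for it where it had several. For 7 of the 10 kinases the groups did not overlap, with the lower Rb-deficient array above the higher control, a pattern that 9.35% of all genes and 15.3% of the genes past the filter showed. The other 3 were Bub1b, Ttk and Nek2. The measured means of 7 kinases (Cdk1, Plk1, Bub1, Ttk, Melk, Pbk and Nek2) were at least 2-fold higher, beside 1.74% of all genes measured in the same way. For Bub1, Ttk and Melk neither control was well above background, and for Cdk1 and Nek2 control 2 was not, so these folds are not exact. The Nek2 difference was -0.47 without control 2. With both controls raised to the dimmest signal well above background on their array, the fold fell to 2.87 for Melk and 1.55 for Bub1. The other 2 Ttk probes were lower in Rb-deficient islets.

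No kinase passed the test across all genes. The test was limma on all 4 arrays with Benjamini-Hochberg adjustment over 26380 genes, which called 0% of genes at 0.05, with a lowest adjusted p of 0.163 for any gene. Of the 8 kinases past the filter, 5 had an unadjusted limma p under 0.05 (Cdk1, Pbk, Melk, Aurka and Plk1), beside 1.48% of genes with such a p and a higher mean, 390 genes in number, against 1103 genes with a lower mean. Cdk1, Aurkb, Bub1, Melk and Nek2 passed the filter only through the Rb-deficient arrays, where they were higher, so the count of 5 is a description and nothing is read from its excess over that share. Adjusted limma p-values of the 8 kinases ran from 0.581 to 0.867. With 2 arrays against 2, a two-sided exact permutation test cannot give a p under 0.333. Under scaling by the array median, limma called 4 kinases (Cdk1, Bub1, Melk and Pbk) and 480 genes, and that scaling moved the median of all genes past the filter to 0.37.

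**Figure D1:**
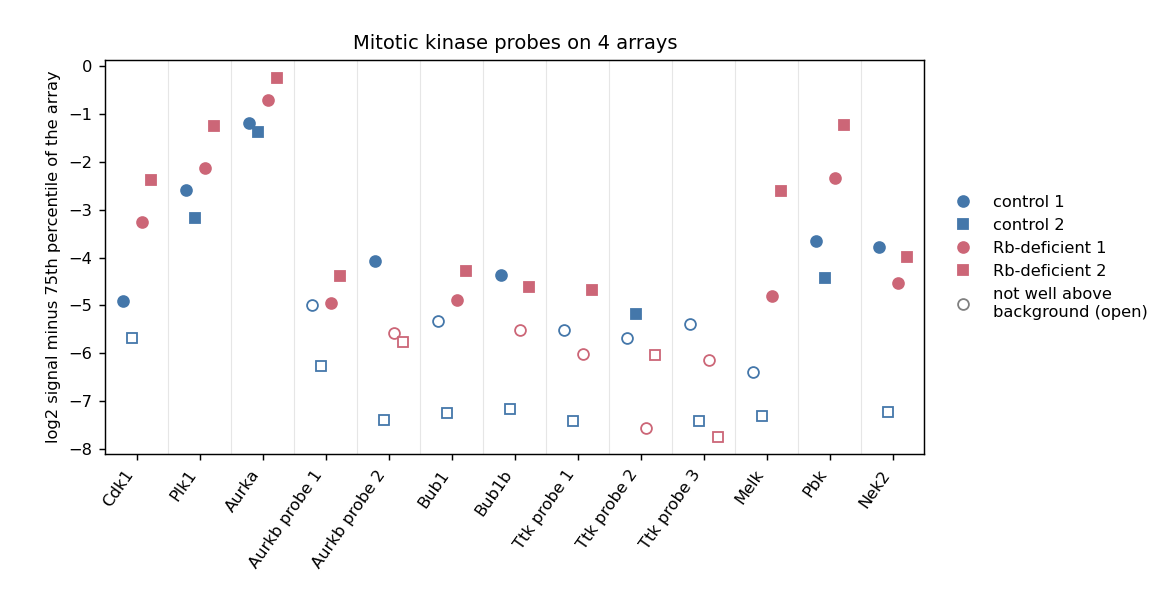
Log2 signal minus the array's 75th percentile for the 13 probes of the 10 mitotic kinases, on 2 control arrays (blue) and 2 Rb-deficient arrays (red). Filled points were well above background and open points were not. For Cdk1, Plk1, Aurka, Bub1, Melk, Pbk and probe 1 of Aurkb both red points lie above both blue points, by only 0.046 for that Aurkb probe. Control 2 (blue squares) is the lowest point for most of the dim probes.

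Cdk1 encodes the kinase that, with cyclin A or cyclin B, triggers entry into mitosis. Its probe read -4.90 and -5.68 in controls and -3.25 and -2.38 in Rb-deficient islets, where the processed signals were 12.1, 7.98, 38.3 and 93.7 units in that order. Both Rb-deficient arrays stood above both controls with a gap of 1.65 (log2), and only control 2 was not well above background. The difference was 2.48 ± 0.46 (SE, n = 2 against 2; 95% interval 1.19 to 3.77; limma adjusted p = 0.581), or 5.57-fold. Without control 1 the difference was 2.87, and without control 2, the array where the probe was not measured above background, it was 2.08.

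The Cdk1 promoter is printed here because motifs of mitotic and E2F-driven promoters stand close together in it. The 250 bases before the RefSeq start lie at chr10:69352913-69353162 of GRCm38.p6, minus strand. Capitals mark matches on either strand to 3 motifs. They are the cell cycle homology region (CHR), spelled TTTGAA or alternatively TTCGAA, the CCAAT box, spelled CCAAT and read as ATTGG where it lies on the opposite strand, and the E2F motif, spelled TTTCCCGC or else TTTGGCGC or else TTTCGCGC or else TTTGCCGC. The CHR is the element through which the DREAM and MuvB complexes act on mitotic genes, and the CCAAT box binds NF-Y.
Cdk1: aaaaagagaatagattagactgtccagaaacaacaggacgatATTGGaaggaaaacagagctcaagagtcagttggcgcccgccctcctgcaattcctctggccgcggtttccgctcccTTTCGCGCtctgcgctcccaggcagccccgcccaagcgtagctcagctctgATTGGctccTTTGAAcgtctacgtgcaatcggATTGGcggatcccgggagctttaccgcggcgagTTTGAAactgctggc
The window held 3 CCAAT matches on the opposite strand, first bases at -208, -80 and -48 from the start, 2 CHR matches at -71 and -15, and 1 E2F match at -131.

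Pbk encodes a kinase active in mitosis, also called TOPK. Its levels were -3.65 and -4.43 in controls and -2.34 and -1.23 in Rb-deficient islets, all well above background. Both Rb-deficient arrays were above both controls by at least 1.31, a wider gap than the 0.78 between the controls. The difference was 2.26 ± 0.52 (SE; 95% interval 0.79 to 3.73; limma adjusted p = 0.703), a 4.79-fold higher level. It was 2.65 without control 1 and 1.71 without Rb-deficient array 2. The promoter table used here holds no window for Pbk or Aurkb.

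Melk encodes a kinase of the AMPK-related family whose transcript follows proliferation. Its probe was at -6.38 and -7.31 in controls, neither well above background, and at -4.80 and -2.60 in Rb-deficient islets, both well above it. The level was 2.87-fold higher in Rb-deficient islets when each control took the higher of the probe's own value and the dimmest signal well above background. That signal is no strict limit of detection. The measured means differed by 3.14 ± 0.88 (SE; 95% interval 0.65 to 5.64; limma adjusted p = 0.801). The Rb-deficient arrays differed from each other by 2.21, so the size of the difference depended on which was used: 2.04 with array 1 alone and 4.25 with array 2 alone. It was 3.61 without control 1. In contrast to Cdk1, the Melk window (250 bases before the start, chr4:44300667-44300916 of GRCm38.p6, plus strand) held no match to any of the 3 motifs, and it is printed in lower case throughout for comparison.
Melk: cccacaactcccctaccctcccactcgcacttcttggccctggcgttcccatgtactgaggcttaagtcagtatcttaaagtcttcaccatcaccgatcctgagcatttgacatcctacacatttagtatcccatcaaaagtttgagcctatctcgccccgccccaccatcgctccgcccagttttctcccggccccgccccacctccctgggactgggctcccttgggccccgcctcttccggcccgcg

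**Figure D2:**
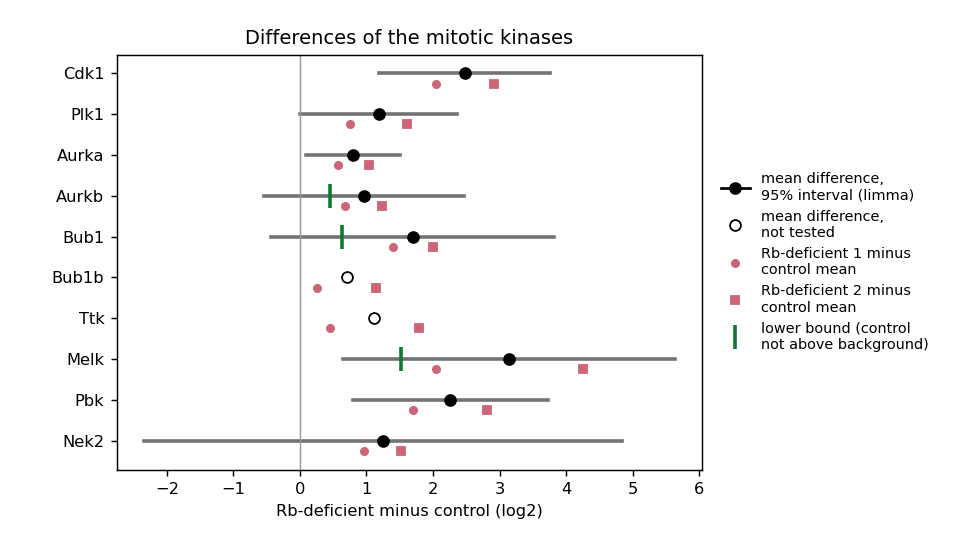
Rb-deficient minus control mean (log2) for each kinase. Black points with bars are limma differences with 95% intervals, open points were not tested, and red points are each Rb-deficient array against the control mean. Green ticks, labelled lower bound, are given where neither control was well above background. They are differences with each control raised at least to the dimmest signal well above background on its array. The intervals of Aurkb, Bub1 and Nek2 include 0, and the red square (array 2) lies to the right of the red circle (array 1) for all 10 kinases.

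Plk1 and Aurka, the remaining kinases measured above background on all 4 arrays, showed smaller differences. Plk1, Polo-like kinase 1, acts in centrosome maturation and spindle assembly. Its levels were -2.58 and -3.17 in controls and -2.12 and -1.26 in Rb-deficient islets. The gap of 0.45 between the groups was smaller than the spread within either of them. The difference was 1.18 ± 0.42 (SE; 95% interval 0.0066 to 2.36; limma adjusted p = 0.863), 2.27-fold. Without control 1 it was 1.48, and without Rb-deficient array 2 it was 0.75.

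Aurka encodes Aurora A, the centrosomal member of the Aurora family. Its levels were -1.18 and -1.38 in controls and -0.71 and -0.24 in Rb-deficient islets, in signals 159 and 158 against 222 and 413 units. The groups did not overlap, and the gap of 0.47 exceeded the 0.19 between the controls and was about the 0.47 between the Rb-deficient arrays. The difference was 0.80 ± 0.25 (SE; 95% interval 0.091 to 1.51; limma adjusted p = 0.842), 1.74-fold. Of the 8 kinases tested it had the narrowest interval, and without control 1 the difference was 0.90.

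Aurkb encodes Aurora B, the kinase of the chromosomal passenger complex at centromeres. Its brighter probe read -5.00 and -6.27 in controls, neither well above background, and -4.95 and -4.39 in Rb-deficient islets, both above it. Control 1 and Rb-deficient array 1 differed by only 0.046 on this probe. With control 2 raised to the dimmest signal well above background on that array, the level was 1.36-fold higher in Rb-deficient islets. That is no strict limit, since control 1 lacked the flag at -5.00, above the dimmest such signal of its array (-5.21). The measured difference was 0.96 ± 0.53 (SE, 95% interval -0.54 to 2.46, limma adjusted p = 0.863). That difference was 1.60 without control 1, 0.32 without control 2 and 0.08 with normexp background correction. The second Aurkb probe disagreed: it read -4.07 and -7.39 in controls and -5.58 and -5.77 in Rb-deficient islets, a difference of 0.051, and only control 1 was well above background.

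The spindle checkpoint kinases were near or under the background. Bub1, which recruits checkpoint proteins to kinetochores, was not well above background in either control (-5.32 and -7.25) and was in both Rb-deficient arrays (-4.89 and -4.29). With both controls raised to the dimmest signal well above background on their array, Bub1 was 1.55-fold higher in Rb-deficient islets. The measured difference was 1.69 ± 0.75 (SE, limma adjusted p = 0.863). That difference was 2.66 without control 1, 0.73 without control 2 and 0.12 with normexp background correction. Bub1b, which encodes the checkpoint protein BUBR1, read -4.37 and -7.17 in controls and -5.51 and -4.62 in Rb-deficient islets. Control 1 was the highest of the 4 arrays for Bub1b, so the groups overlapped, and the difference of 0.70 became 2.10 without control 1 and -0.70 without control 2. It did not pass the filter and was not tested.

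Ttk encodes MPS1, the kinase that starts checkpoint signalling, and none of its 3 probes passed the filter. The brightest read -5.52, -7.42, -6.02 and -4.68 on control 1, control 2, Rb-deficient 1 and Rb-deficient 2, with only the last well above background. The second, of another transcript accession, read -5.68, -5.17, -7.55 and -6.03 in the same order, with only control 2 well above background. The third was above background on no array. Their differences were 1.12, -1.37 and -0.53, so these probes gave Ttk no common direction. Without control 1 the second probe was the only one past the filter, and the difference was -1.62.

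Nek2 encodes a kinase that separates the centrosomes. Its levels were -3.78 and -7.22 in controls and -4.53 and -3.98 in Rb-deficient islets, with control 2 the only array not well above background. Control 1 was the highest of the 4 arrays, and the groups overlapped. The difference of 1.24 ± 1.27 (SE; 95% interval -2.35 to 4.84; limma adjusted p = 0.867) rested on control 2, without which it was -0.47, and it was 2.96 without control 1.

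**Figure D3:**
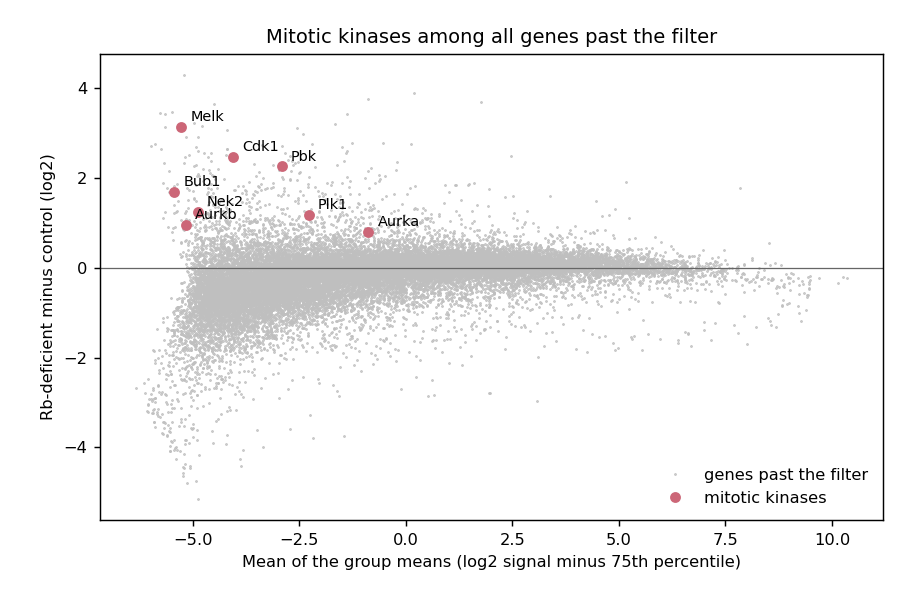
Difference between Rb-deficient and control means against the mean of both (log2) for the 26380 genes past the filter (grey) and the 8 kinases among them (red). The kinases lie in the dim part of the range and above 0, at differences of 0.80 to 3.14, beside a median of -0.07 over all genes shown.

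The kinases were ordered alike within the groups as well as between them. All 10 were higher on Rb-deficient array 2 than on array 1, with a median gap of 0.87, although only 34.2% of all genes were higher on array 2. All 10 were also higher on control 1 than on control 2, with a median gap of 1.10, as were 73.5% of all genes. From the control mean, the median difference of the 10 kinases was 0.86 on Rb-deficient array 1 and 1.70 on array 2. By the brightest probe of each gene, the Rb-deficient arrays exceeded control 2 for all 10 kinases and control 1 for 7. The shares of all genes above a single control array were not counted, so nothing is read from these 2 counts. The median difference over the kinases was 2.38 without control 1 and 0.72 without control 2. Only 3 of the 10 kinases were well above background on control 2, so the value of 2.38 rests largely on dim control signals.

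Markers of other cell types differed between the same arrays. The median macrophage marker exceeded the mean of the controls by 0.32 on Rb-deficient array 1 and by 1.25 on array 2. Of these 11 markers, 10 were higher in mean. Both Rb-deficient arrays were above both controls for 15.3% of genes past the filter and for 5 of the 11 macrophage markers. Their summed linear level, in multiples of the 75th percentile, was 45.2 and 43.4 in controls and 49.2 and 39.7 in Rb-deficient islets. The exception was Itgam, the brightest of them. The 10 acinar markers were all lower in mean, with median differences from the controls of -0.22 (Rb-deficient array 1) and -1.15 (array 2), with summed levels of 7204 and 5941 in controls and 5459 and 3116 in Rb-deficient islets. Markers of alpha, delta and PP cells differed by a median of -0.48 and -0.45, with 3 of 7 below both controls, and ductal markers by -0.34 and -0.32, also with 3 of 7 below both. Beta cell markers differed by 0.14 and -0.08, lymphocyte markers by -0.22 and 0.16, endothelial markers by -0.02 and 0.38 and stromal markers by -0.45 and 0.57 on the 2 arrays. No defining marker list of macrophages or acinar cells was absent from an array: all 11 and all 10 of their markers were well above background on all 4. The share of all genes below both controls was not counted, and the part of these cells in the kinase values was not tested.

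The genes most like the kinases over the 4 arrays were found by the root-mean-square distance between centred levels, among 14999 named genes well above background on all arrays. They were Fam81a (distance 0.13), Stk33 (0.15), Ccnb1 (0.19), Tmem179 (0.21) and Neil3 (0.23). Ccnb1 encodes cyclin B1, the partner of CDK1, and Neil3 a DNA glycosylase. With 4 arrays this likeness is a description only.

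Partners and regulators of the kinases were counted from lists of known roles, and limma called 0 genes in each of them. Both Rb-deficient arrays were above both controls for 9.35% of all genes and 15.3% of genes past the filter. The counts below stand beside these shares, and a count near them says nothing about its list. Of 11 CDK1 cyclins and regulators, 10 were higher in mean and 7 were above both controls on both arrays, with a median difference of 0.38. Cyclin B2 (Ccnb2) stood at -2.27 and -3.10 in controls and -1.20 and -0.48 in Rb-deficient islets, a difference of 1.85. Cyclin B1 (Ccnb1) differed by 1.78 and cyclin A2 (Ccna2) by 1.50, both without overlap of the groups. These 3 cyclins had unadjusted limma p under 0.05. The phosphatase Cdc25b, which activates CDK1, differed by 0.38.

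The other subunits of the chromosomal passenger complex, the partners of Aurora B, were measured well above background on all 4 arrays. All 3 passenger subunits were higher with no overlap of the groups. Survivin (Birc5) was at -1.88 and -2.99 in controls and -0.88 and -0.21 in Rb-deficient islets, a difference of 1.89, borealin (Cdca8) differed by 1.72 and Incenp by 0.47. Among 3 activators of PLK1 and Aurora A, the Aurora A activator Tpx2 differed by 1.74, with control 2 not well above background, while Bora differed by -0.15 and Ajuba by -0.75 with overlapping groups.

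Of 8 other checkpoint genes and coactivators of the anaphase-promoting complex, 7 were higher in mean and 4 were above both controls on both arrays, with a median difference of 0.51. Cdc20, the coactivator that the checkpoint restrains, stood at -2.37 and -3.00 in controls and -1.64 and -0.72 in Rb-deficient islets, a difference of 1.50. Shugoshin (Sgo1) differed by 0.69, Mad2l1 by 0.62 and Bub3 by 0.39, each with no overlap of the groups. Unlike Bub1, Bub1b and Ttk, these 4 genes were well above background on all 4 arrays.

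Among 10 transcription factors and DREAM subunits that act on mitotic promoters, 7 were higher in mean, 4 were above both controls and 3 below both, with a median difference of 0.07. Foxm1, a transcriptional activator of G2 and mitotic genes, stood at -3.26 and -3.66 in controls and -2.44 and -1.81 in Rb-deficient islets, a difference of 1.34. Rbl1, which encodes the pocket protein p107, differed by 0.83, and Tfdp1, the E2F partner, by 0.53, both above both controls. Mybl2, which encodes the mitotic activator B-MYB, was lower with no overlap of the groups, at a difference of -0.61.

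Of 9 other kinases of mitosis and centrosomes, 5 were higher in mean and 2 above both controls, with a median difference of 0.00068. Nek6 differed by 0.60, Plk4, the kinase of centriole duplication, by -0.16, Aurkc by -0.62 and citron kinase (Cit) by -1.39. Of 35 relatives in the CDK, PLK, NEK and AMPK-related families with main roles outside mitosis, 14 were higher in mean, 5 above both controls and 9 below both, and the median difference was -0.04. Cdk14 was the relative with the lowest p (1.26 and 1.21 in controls, 2.41 and 2.82 in Rb-deficient islets, limma adjusted p = 0.516). Plk3 differed by 0.51, Sik1 by -0.92 and Nek11 by -1.62. 

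Mki67, which encodes Ki-67, stood at -2.06 and -3.46 in controls and -0.98 and 0.06 in Rb-deficient islets, 4.91-fold higher in mean. Top2a, topoisomerase II alpha, differed by 2.33 and Pcna, the clamp of DNA replication, by 1.10. The groups did not overlap for any of the 3, and all 3 were higher on Rb-deficient array 2 than on array 1. Differences between any of these lists and the 10 kinases were not tested.

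Without control 1, both Rb-deficient arrays were above control 2 for 10 of 11 CDK1 cyclins and regulators (median difference 0.84), 3 of 3 passenger subunits (1.86), 5 of 8 checkpoint genes and coactivators (0.42), 3 of 3 proliferation antigens and all 10 kinases (2.38). The kinase count and median take the first Ttk probe without the filter, while the second Ttk probe differed by -1.62. Only 3 of the 10 kinases were well above background on control 2, so the kinase median rests largely on dim values. The share of all genes above control 2 on both Rb-deficient arrays was not counted, so nothing is read from these counts. The median of the transcription factors and DREAM subunits was then -0.06, below 0, and that of the activators of PLK1 and Aurora A 0.21, above 0. The other kinases of mitosis and centrosomes had a median of 0.01 and the relatives with roles outside mitosis one of -0.09. Among the marker lists, the macrophage median was 0.69, the endothelial 0.35, the lymphocyte 0.33 and the stromal 0.07. The acinar median was -0.48, that of alpha, delta and PP cells -0.44, the ductal -0.22 and the beta cell median -0.07.

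**Figure D4:**
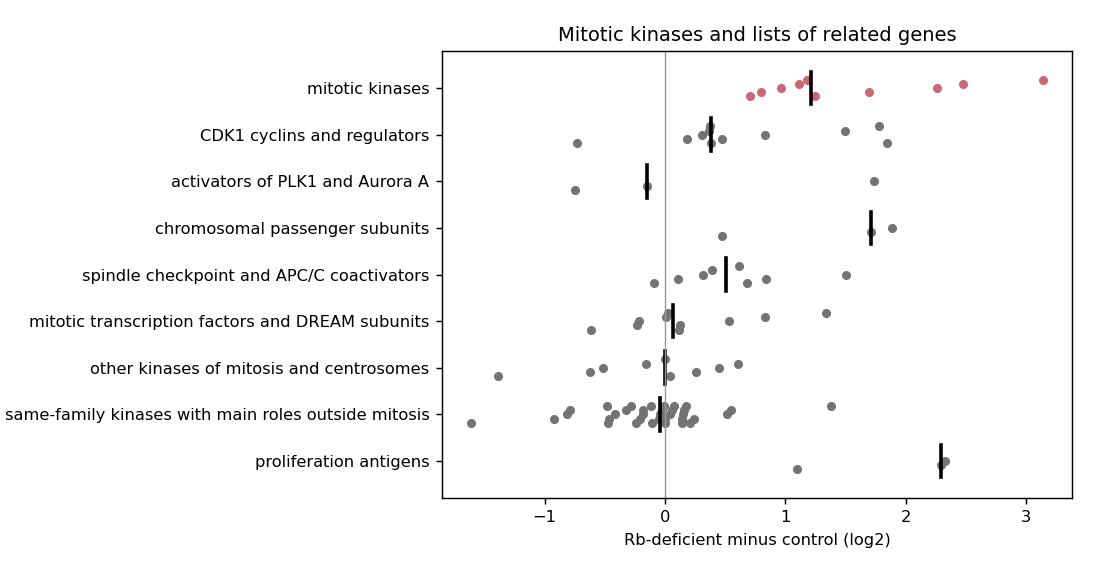
Rb-deficient minus control mean (log2) of each gene, for the 10 kinases (red) and lists of related genes (grey), with the median of each list as a black bar. The kinases lie at 0.70 to 3.14, and medians of the lists run from -0.15 for the activators of PLK1 and Aurora A to 2.30 for the proliferation antigens.

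Promoter windows of 300 bases, 250 before the RefSeq start and 50 after it, were found for 8 of the 10 kinases. A CHR match stood in 6 of these 8 windows, beside 19.2% of the 32851 windows in the table, and a CCAAT match in 7 of 8, beside 37.4%. Both stood in 6 of 8, beside 7.52%. An E2F match was found in 1 of 8, in Cdk1, beside 2.26%. The sites are shown with 10 bases on each side, in the direction of the gene, to compare their surroundings, with the CHR in capitals. TTCGAA reads the same on both strands, and the Ttk site is on the opposite strand.
Cdk1 at -71: gattggctccTTTGAAcgtctacgtg
Cdk1 at -15: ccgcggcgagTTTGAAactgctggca
Plk1 at 31: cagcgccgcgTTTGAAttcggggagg
Aurka at 33: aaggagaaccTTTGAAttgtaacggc
Bub1 at 15: gcgcggggaaTTCGAAtcgccggcgg
Bub1b at -188: tctccctgggTTCGAAggcttgtctt
Ttk at 8: gcggggaaatTTCAAAcgtgtttccg
Numbers are the first base of the match counted from the start, where 1 is the first transcribed base. Bub1b held a second CHR match at 41. Nek2 held CCAAT matches at -26 and 8 and no CHR match. Windows with a CHR match included genes with no overlap between the groups (Cdk1, Plk1, Aurka and Bub1) and genes with overlap (Bub1b and Ttk). Melk, whose groups did not overlap, had none.

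The size of the differences depended on how the dim signals were treated. With normexp background correction and an offset of 50 units, a constant added to every signal, the median difference of the kinases was 0.34 and 5 of 10 had no overlap of the groups. With quantile normalization the median was 2.06 and none of the 10 had overlapping groups. Over all genes the medians were -0.14 with normexp and 0.03 with quantile normalization. The shares of all genes without overlap were not counted under these settings, so nothing is read from the 2 counts. Cdk1 ran from 0.68 with normexp to 3.31 with quantile normalization, Melk from 0.55 with normexp to 4.25 without Rb-deficient array 1, and Aurka from 0.57 without Rb-deficient array 2 to 1.24 with array median scaling.

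**Figure D5:**
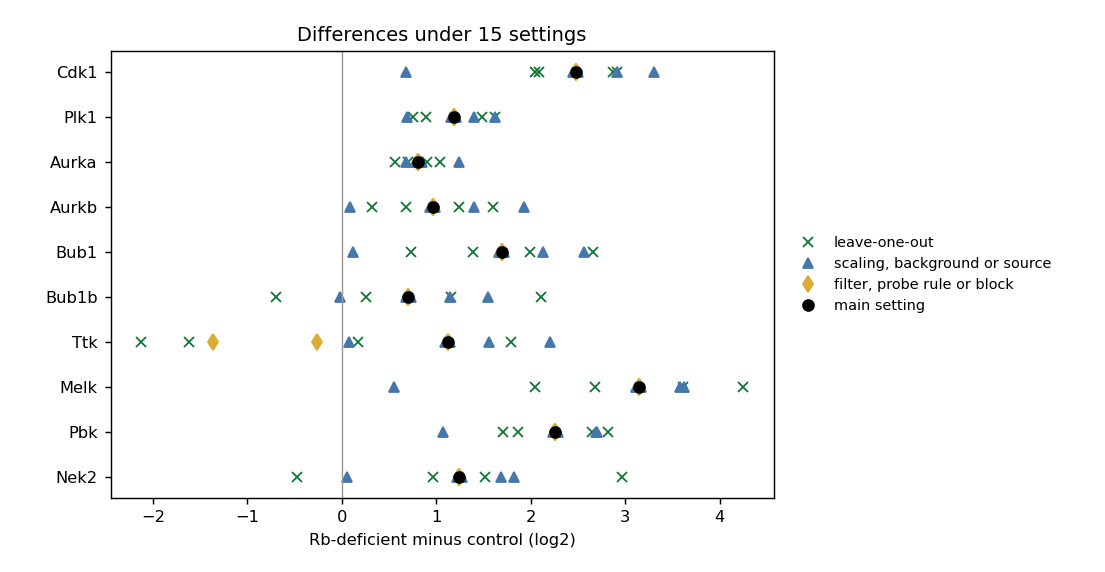
Rb-deficient minus control mean (log2) of each kinase under the main setting (black) and alternatives that leave out an array (green), change the scaling, background or source of the values (blue), or change the filter, the probe rule or the pairing (yellow). Values of Cdk1, Plk1, Aurka, Aurkb, Bub1, Melk and Pbk lie above 0 throughout, and those of Bub1b, Ttk and Nek2 fall on both sides of it.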

How the data were processed

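Cy3-labelled material of islet RNA from 4 mice was hybridised to 4 arrays on 1 slide. The scanner files deposited by the authors hold intensity values per spot, read with Agilent Feature Extraction 12.0.3.1, per the file headers, which also give mm9 as the build of the probe design. The processed intensity is background-subtracted and detrended, and no scaling between arrays is recorded. The authors' deposited value table holds intensity values proportional to these, with constants of 1.74 to 2.49 per array, medians of 157 to 220, and its scaling rule not given in the sources used here.

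Control spots and the 64 to 93 spots per array flagged as outliers were left out. Spots of a probe were averaged on the log2 scale, after dividing processed signals by the 75th percentile of all spots that were no controls. Probes were named by accession through the RefSeq table of GRCm38.p6, which named 32994 of 56605. Probes well above background on both arrays of a group were kept, the brightest for each gene, and 26380 genes were tested with limma 3.58.1 (R 4.3.3) with Benjamini-Hochberg adjustment. The script was tested on simulated data. The members and lists were chosen with earlier results of these data known. Named genes were all members, Rb1, Mki67, Top2a, Pcna, up to 4 genes per list with the smallest p, and the 5 most alike in pattern; Itgam was singled out after its values were seen. Normexp was run on the median signals, since the files read here gave no mean signal. The number of arrays, 2 per group, limits the precision. Promoter sequences are from RefSeq.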

Additional observations from a re-analysis of the deposited data

How the results depend on the processing

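Of 133 differences of single kinases under alternatives, 126 were above 0. Many of the 133 repeat the main value by construction, so the count is no measure of robustness. The filter and probe rules cannot move a kinase with 1 probe, as 8 of the 10 had. A balanced block moves no mean difference. Of the 126, 4 passed the threshold (Cdk1, Bub1, Melk and Pbk with array median scaling, where limma took 1 shared spread for all genes). The 7 below 0 were 4 of Ttk, 2 of Bub1b (-0.02 with normexp and -0.70 without control replicate 2) and 1 of Nek2, -0.47 without control replicate 2 (2.96 without control replicate 1). Ttk was -0.26 as the mean of its probes, -1.37 on its second probe, -1.62 without control replicate 1 and -2.13 without Rb-deficient replicate 2. The second probe gave the last pair, as the only probe past the filter without control replicate 1 and as the brightest without Rb-deficient replicate 2. Array median scaling called 480 genes (234 higher, 246 lower) and 4 kinases, against 0 and 0. Leaving out 1 array gave 0 to 4091 called genes, 4091 (17 higher, 4074 lower, no kinase) without control 2; these fits assume that the lone array varies like the other group. The cause of these calls was not tested. The median over the kinases ran from 0.72 to 2.38 on leaving out 1 array. With the filter on all 4 arrays, 3 kinases were left, all 3 above both controls, a pattern whose share of genes under that filter was not counted. With the replicate block, which pairs arrays by title number, no gene was called and the lowest adjusted limma p of a kinase was 0.357. The median stayed 1.21, which that block cannot change. No label pairs the mice, and the within-group differences of the numbers correlated at r = 0.30 over genes. The medians of the gene lists without control 1 and scaling by the 75th percentile over probes were added after seeing the data. That scaling and the deposited value table changed no call. A fit with the slide as a block was not run, since all arrays shared 1 slide. The dim signals, with 3 of 10 kinases well above background on all arrays, limit the folds.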
